A study of Rattus norvegicus with 12 samples.

Results

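The 191 genes described here were higher after an siRNA against NRF2 than after a control siRNA in smooth muscle cells of the rat pulmonary artery (PASMC), and lower after it in endothelial cells of the same vessel (PAEC). They are 191 of 32883 genes in the count table. The genes were chosen by their levels in the siRNA groups, in CPM (a gene's count per 1000000 counts of its library). A gene had to lie on chromosomes 1 to 20 and to average at least 2 CPM in both control groups, which 10559 genes did. Its mean with the NRF2 siRNA had to be at least 1.3 times the control mean in PASMC and at most 0.77 times the control mean in PAEC, with no overlap between the siRNA groups in either cell type. A further 20 genes met these thresholds but were left out by the rule, which excludes 6 chromosome regions and 3 single genes. Changes with the siRNA are therefore a description of the set, with no test.

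The 12 RNA-seq libraries fall into 4 groups of 3. They are PASMC given NRF2 siRNA (PASMC siNRF2), PASMC given control siRNA (PASMC siControl), PAEC given NRF2 siRNA (PAEC siNRF2) and PAEC given control siRNA (PAEC siControl). All were primary rat cells labelled as wild type and as lung in origin, without a strain or an age, and each cell type was grown in its own medium, so cell type and medium cannot be told apart. An siRNA is a short RNA duplex used to lower a chosen mRNA. The design text calls the 3 libraries of a group biological replicates. The labels do not say whether they came from separate animals or cultures, so p-values measure the spread between these libraries.

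NRF2 is a transcription factor that the protein KEAP1 normally marks for degradation. Under oxidative or electrophilic stress it escapes, enters the nucleus and drives genes for glutathione synthesis, detoxification and NADPH supply. Smooth muscle cells form the contractile wall of the pulmonary artery and endothelial cells line it, and both are studied in pulmonary hypertension, in which the wall thickens.

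Libraries held 27008812 to 34317763 counts. The cell type field of the labels reads PASMC for all 12 libraries, so the titles were used. The columns of the table carry letters that were read as E for endothelial or S for smooth muscle cells and then C for control or S for NRF2 siRNA, an inference on which every direction below rests. The table names genes by Ensembl ID, and 0 of the 32883 IDs could be matched to a symbol. This leaves the level of the siRNA target, the markers of either cell type and gene lists by function not analysed here. Genes are given by position, as in the count table and counted from 1, in a build that the sources used here do not name.

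In PASMC the 191 genes had a median ratio of siNRF2 to siControl of 1.47, with a lowest of 1.303 and a highest of 4.96. In PAEC the median ratio was 0.668, with a range from 0.167 to 0.7699. Most of the changes were moderate. A ratio of at least 2 in PASMC was reached by 13 genes, and a ratio of at most 0.5 in PAEC by 31, but only 3 genes did both. With 1.5-fold as the limit, 77 genes passed in PASMC, 94 in PAEC and 46 in both. The change was larger in PAEC than in PASMC, on the log2 scale, for 107 of the 191. In bulk RNA, fewer cells that make a transcript and less transcript per cell cannot be told apart.

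For context, 25.5% of the 10559 genes above the level floor had siRNA groups that did not overlap, with siNRF2 higher, in PASMC, and 25.7% had groups that did not overlap, with siNRF2 lower, in PAEC. Both held for 6.44%, and 1.81% met the full rule. The opposite rule, with siNRF2 lower in PASMC and higher in PAEC, was met by 119 genes, or 1.13%. In an edgeR fit over all genes, 171 of the 191 were called higher in PASMC (16.1% of 14584 genes tested) and 157 were called lower in PAEC (13.2% of genes tested). These calls rest on the comparisons that chose the genes, and nothing is read from them.

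**Figure D1:**
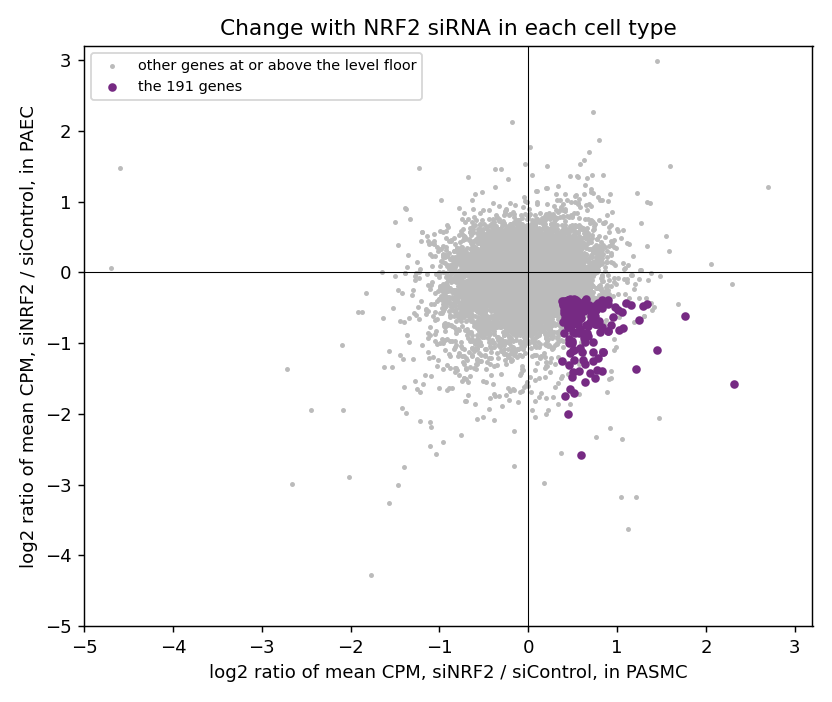
Log2 ratio of mean CPM between siNRF2 and siControl in PASMC (horizontal axis) and in PAEC (vertical axis), 1 point per gene for the 10559 genes with at least 2 CPM in both control groups; the 191 genes are in purple. They fill the lower right corner from the thresholds outward, with 1 gene at 2.31 in PASMC and another at -2.58 in PAEC standing away from the rest; grey points in that corner miss a threshold, overlap between siRNA groups or are left out by the rule.

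The genes were ranked by the smaller of the changes in the 2 cell types. The first was ENSRNOG00000036301, a single exon of 106 bases on the minus strand of chromosome 1 (101448331 to 101448436). It had 12.1, 11.2 and 13.2 CPM in PASMC siNRF2, against 1.15, 3.28 and 2.92 CPM in PASMC siControl. In PAEC it had 6.54, 5.24 and 4.87 CPM in siNRF2, against 19.4, 17.4 and 12.8 CPM in siControl. Every siNRF2 library of PASMC lay above every control library by a wide margin, and PAEC showed the reverse order. The log2 ratio was 2.31 in PASMC and -1.58 in PAEC. Most of this short gene lies within another of the 191 on the same strand (101448346 to 101449829), so the overlap may affect both counts.

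That longer neighbour was the most abundant of the 191 per base of exon, at a mean over all libraries of 2875 CPM per kb. It had 1776 ± 60.7 CPM in PASMC siNRF2 and 1246 ± 167 CPM in PASMC siControl (mean ± SD, n = 3, as below). In PAEC it had 1061 ± 55.0 CPM in siNRF2 and 2265 ± 333 CPM in siControl. Its log2 ratios, 0.51 and -1.09, were smaller in both cell types than those of the short gene that it overlaps.

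The second gene, ENSRNOG00000033776 (chromosome 6, 76652206 to 76652757, minus strand), is also a single exon. It had 13.9, 9.44 and 9.21 CPM in PASMC siNRF2, against 4.74, 3.75 and 5.60 CPM in PASMC siControl. Its levels were 3.97, 4.61 and 3.00 CPM in PAEC siNRF2, against 10.6, 10.9 and 8.51 CPM in PAEC siControl. The cell types thus had nearly mirrored levels, and the difference between them, averaged over the siRNAs, did not pass the test (log2 difference PASMC minus PAEC -0.24, SE 0.16, adjusted p = 0.20, edgeR quasi-likelihood test with Benjamini-Hochberg adjustment).

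The third, ENSRNOG00000047447 (chromosome 4, 157374318 to 157374952, plus strand), varied widely among replicates. It had 39.2, 23.4 and 27.4 CPM in PASMC siNRF2, against 7.85, 9.38 and 15.8 CPM in PASMC siControl. In PAEC siNRF2 it had 15.7, 17.9 and 19.8 CPM, against 58.4, 34.3 and 21.2 CPM in PAEC siControl. The lowest PAEC control library, replicate 3, stood just above the highest siNRF2 library. The fourth, ENSRNOG00000055241 (chromosome 3, 110540717 to 110541170, plus strand), averaged 9.56 ± 1.40 CPM in PASMC siNRF2 and 5.34 ± 2.32 CPM in PASMC siControl, with 1.57 ± 0.264 CPM in PAEC siNRF2 and 3.45 ± 1.64 CPM in PAEC siControl. These first 4 genes all have under 700 bases of exon, as do 9 of the first 24. The same held for 22 of the 191 (11.5%) and for 4.86% of the genes above the level floor.

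**Figure D2:**
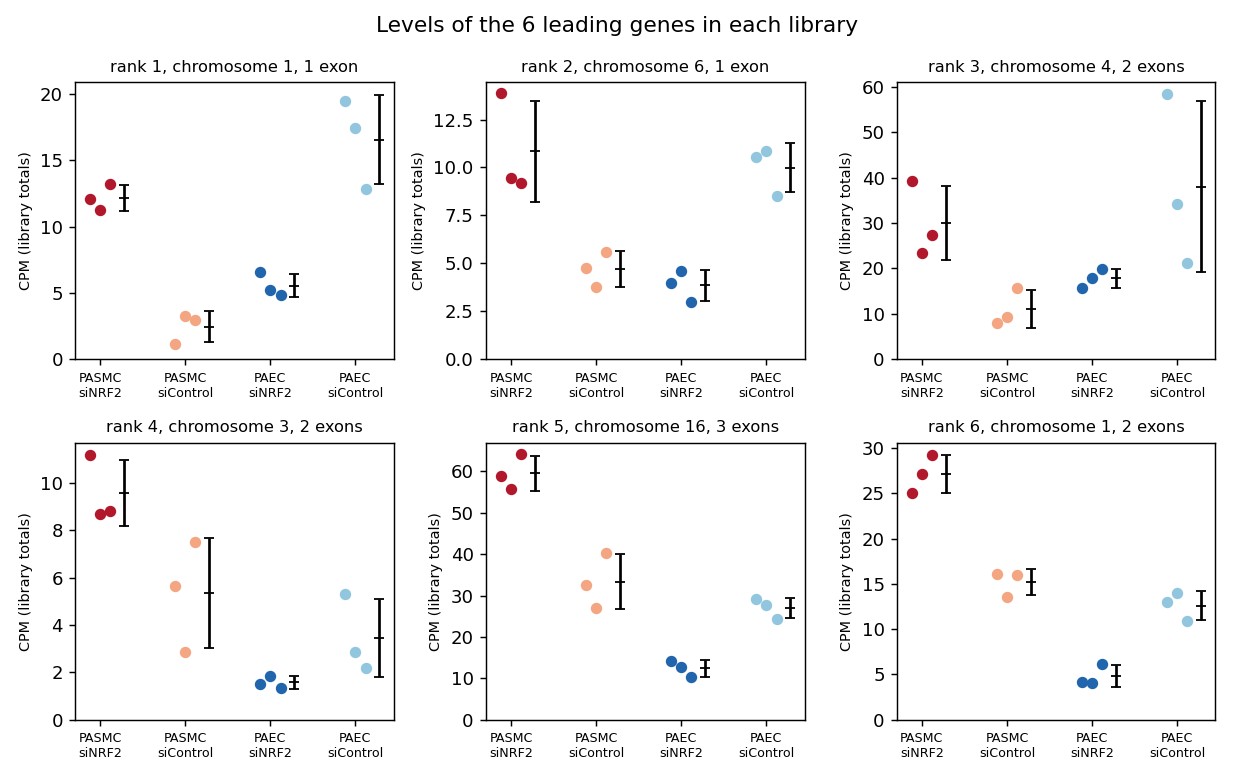
CPM from library totals of the 6 genes with the largest smaller change, 1 panel per gene, with the 4 groups on the horizontal axis, 1 point per library and the mean ± SD (n = 3) beside the points. In each panel the siNRF2 points of PASMC stand above their controls and those of PAEC below; in the panel of rank 3 the lowest PAEC control, at 21.2 CPM, stands just above the highest siNRF2 library, at 19.8 CPM.

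Some longer genes among the first 24 had tighter replicates. The gene on chromosome 16 at 19223087 to 19225037, with 3 exons, had 58.8, 55.7 and 64.1 CPM in PASMC siNRF2, against 32.7, 27.1 and 40.3 CPM in PASMC siControl. It had 14.3, 12.7 and 10.2 CPM in PAEC siNRF2, against 29.1, 27.7 and 24.4 CPM in PAEC siControl. The gene on chromosome 1 at 228724900 to 228727160, with 2 exons, averaged 27.1 ± 2.09 CPM in PASMC siNRF2 and 15.2 ± 1.41 CPM in PASMC siControl. Its PAEC averages were 4.82 ± 1.2 CPM in siNRF2 and 12.6 ± 1.59 CPM in siControl. Both genes were higher in PASMC than in PAEC, as a mean over the siRNAs, the first by 0.84 on the log2 scale (SE 0.095, adjusted p = 2.5e-07, edgeR) and the other by 0.94 (SE 0.11, adjusted p = 7.2e-07).

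Another pair on chromosome 13 had opposite levels in the cell types but like responses. The gene at 67672878 to 67688477, with 14 exons, averaged 14.4 ± 0.445 CPM in PASMC siNRF2 and 7.73 ± 2.07 CPM in PASMC siControl, while in PAEC it averaged 63.7 ± 5.42 CPM in siNRF2 and 113 ± 8.97 CPM in siControl. It was the member furthest on the endothelial side, at a log2 difference of -3.44 (SE 0.096, adjusted p = 2.0e-16, edgeR). The gene at 51022681 to 51030802, with 10 exons, averaged 20.7 ± 2.46 CPM in PASMC siNRF2 and 11.1 ± 1.76 CPM in PASMC siControl, with 2.35 ± 0.537 CPM in PAEC siNRF2 and 4.16 ± 0.743 CPM in PAEC siControl. It was higher in PASMC by 1.84 (SE 0.14, adjusted p = 1.3e-09, edgeR). The log2 ratios with the siRNA were 0.90 and 0.89 in PASMC, and -0.83 in PAEC for both.

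Members of higher level among the first 24 showed the same order. At 19938784 to 19942353 on chromosome 16, a gene with 5 exons had 298, 257 and 266 CPM in PASMC siNRF2, against 144, 154 and 183 CPM in PASMC siControl. It had 24.8, 34.6 and 23.9 CPM in PAEC siNRF2, against 68.4, 77.2 and 71.6 CPM in PAEC siControl, so the groups were well apart in both cell types. At 110138586 to 110148358 on chromosome 10, a gene with 6 exons averaged 168 ± 15 CPM in PASMC siNRF2 and 101 ± 7.73 CPM in PASMC siControl. In PAEC it averaged 5.97 ± 0.268 CPM in siNRF2 and 13.0 ± 2.64 CPM in siControl. Over the first 24 genes, log2 ratios ran from 0.69 to 2.31 in PASMC and from -1.58 to -0.69 in PAEC. One library carried much of the PAEC value of the gene on chromosome 7 at 118507224 to 118509256, which had 12.8, 15 and 15.3 CPM in PAEC siNRF2, against 21.4, 63.8 and 17.25 CPM in PAEC siControl. Of the first 24 genes, 18 differed between the cell types in the edgeR test, 8 of them higher in PASMC. Of the 10559 genes above the level floor, 33.1% were called higher in PASMC and 34.4% lower, so such calls were common.

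At the limits of the rule, the members closest to the PASMC threshold had ratios of 1.303, 1.303 and 1.313, and the 3 genes just outside it, which met every other part of the rule, had 1.299 each. Closest to the PAEC threshold, members had ratios of 0.7699, 0.7685 and 0.7680, and the genes just outside had 0.7701, 0.7704 and 0.7711. Genes on either side of a limit thus differed little.

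The lowest ratios in PAEC included those of a group of 3 adjacent members on chromosome 12, between 41200718 and 41363161, chosen for description after its values were seen. These were the only genes of that stretch above the level floor. The gene at 41340815 to 41363161 had the lowest PAEC ratio of the 191. It had 1.36, 3.00 and 1.60 CPM in PAEC siNRF2, against 11.6, 12.4 and 11.8 CPM in PAEC siControl, a log2 ratio of -2.58. In PASMC it had 37.9, 37.4 and 41.9 CPM in siNRF2, against 26.1, 21.6 and 30.1 CPM in siControl, a log2 ratio of 0.59. No library of either group came near the other in PAEC, while in PASMC the highest control, at 30.1 CPM, was nearer to the lowest siNRF2 library.

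Its neighbours had the same order of groups. The gene at 41227825 to 41307352, on the opposite strand, averaged 87.5 ± 5.88 CPM in PASMC siNRF2 and 58.8 ± 1.18 CPM in PASMC siControl, with 15 ± 2.17 CPM in PAEC siNRF2 and 39.5 ± 1.93 CPM in PAEC siControl. The gene at 41200718 to 41211909 averaged 80.3 ± 3.65 CPM in PASMC siNRF2 and 57.8 ± 4.97 CPM in PASMC siControl, with 7.99 ± 1.83 CPM in PAEC siNRF2 and 25 ± 4.24 CPM in PAEC siControl. All 3 were higher in PASMC as a mean over the siRNAs, by 2.27 (SE 0.14), 1.12 (SE 0.070) and 1.83 (SE 0.099) on the log2 scale in the order described (adjusted p at most 4.1e-11, edgeR).

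In all, 39 of the 191 genes lay within 100 kb of another member, in 12 pairs and 5 groups of 3. In the other 4 groups of 3 the members were interspersed with genes that did not meet the rule. On chromosome 8, for example, 3 members lay among 11 genes above the level floor between 116289590 and 116361343, and 4 of the other 8 had log2 ratios between -0.10 and 0.10 in PASMC. The pair on chromosome 5 between 173589819 and 173626248 included the gene with the second lowest PAEC ratio (173624310 to 173626248). It averaged 359 ± 26.8 CPM in PASMC siNRF2 and 264 ± 12.1 CPM in PASMC siControl, with 11 ± 2.35 CPM in PAEC siNRF2 and 43.8 ± 7.72 CPM in PAEC siControl.

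A further member, on chromosome 2 at 248178389 to 248197160, starts just outside one of the regions that the rule leaves out. It had 378, 411 and 438 CPM in PASMC siNRF2, against 306, 299 and 336 CPM in PASMC siControl, a ratio of 1.303, close to the limit of the rule. In PAEC it had 11.9, 11.7 and 12 CPM in siNRF2, against 25.7, 29.0 and 30.2 CPM in siControl. Its level differed most towards PASMC among the 191, by 3.85 on the log2 scale (SE 0.062, adjusted p = 9.0e-20, edgeR).

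The difference between the cell types as a mean over both siRNAs was tested for every gene. It is another contrast than the ratios of the rule, but the same siNRF2 and siControl levels enter it. Of the 191, 85 (44.5%) were higher in PASMC than in PAEC, 55 (28.8%) were lower and 51 did not pass (edgeR, adjusted p under 0.05). Among all 14584 genes tested, 32.4% were higher in PASMC and 30.7% lower. Among the 10559 genes above the same level floor the shares were 33.1% higher and 34.4% lower. The share towards PASMC was thus above both backgrounds and that towards PAEC slightly below, with no test of the difference between the sets. The median log2 difference was 0.11 for the 191 and -0.0021 for the genes above the floor. Differences of at least 2-fold were called for 37 members (19.4%) towards PASMC and 20 (10.5%) towards PAEC, against 7% and 8.88% of the genes above the floor.

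When library totals replaced TMM (edgeR's scaling, which takes most genes as not different), the median of the 191 moved to 0.55 and that of the genes above the floor to 0.44. The split of the calls then became 131 members higher in PASMC (68.6%) and 25 lower (13.1%), against 65.5% and 15.5% of the genes above the floor. The share of members higher in PASMC was thus closer to the background than with TMM, while the medians of the sets lay about as far apart. Within each siRNA the split followed from the rule, with 133 higher in PASMC and 16 lower among siNRF2 libraries, against 32 higher and 110 lower among siControl libraries. The shares of the genes above the floor were 29.2% and 31.5% among siNRF2 libraries, and 29.1% and 31.7% among siControl libraries.

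**Figure D3:**
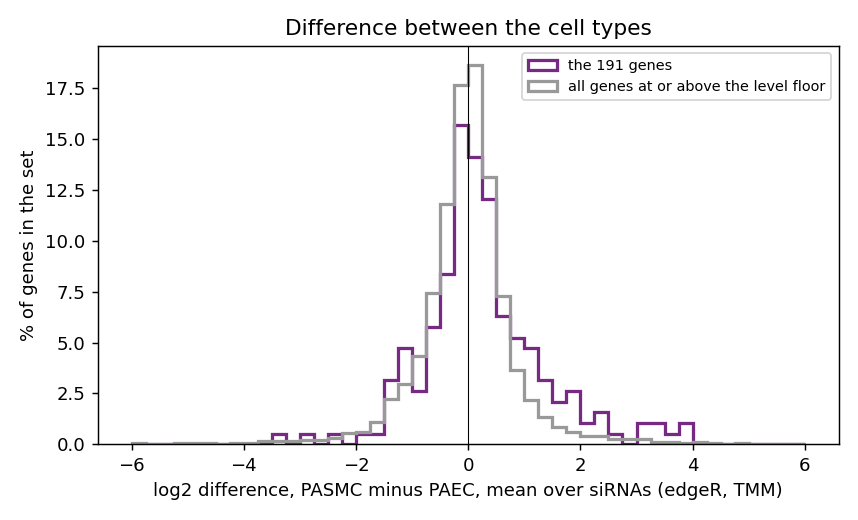
Distribution of the log2 difference between the cell types (PASMC minus PAEC, mean over the siRNAs, edgeR fit with TMM scaling; horizontal axis) as the share of genes per bin of 0.25 (vertical axis), for the 191 genes in purple and all genes above the level floor in grey. The purple line exceeds the grey one mainly between 1 and 4, where 37 members were called at least 2-fold higher in PASMC.

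In means of TMM-scaled CPM, 109 of the 191 genes were lower in PASMC than in PAEC under control siRNA and higher in PASMC under NRF2 siRNA. Another 54 were higher in PASMC and 28 higher in PAEC under both siRNAs. With CPM from library totals these counts were 84, 91 and 16. Opposite responses in the 2 cell types make such a crossing likely, so the counts describe the set and no more.

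Among the 31 genes with a PAEC ratio of at most 0.5 was one on chromosome 7 at 70821957 to 70824085, chosen for description after its values were seen. It averaged 44.6 ± 5.07 CPM in PASMC siNRF2 and 31.3 ± 2.67 CPM in PASMC siControl, with 1.09 ± 0.221 CPM in PAEC siNRF2 and 3.54 ± 0.244 CPM in PAEC siControl.

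As a set, the 191 genes differed from the genes above the level floor in features that the rule did not use, though not every member did. They were more often compact, with a median genomic span of 9.77 kb, against 21.2 kb for the genes above the floor. Their medians were 1847 bases of exon and 6 merged exons, against 2420 bases and 9 exons. A span under 10 kb was found for 51.3% of the members and 29.0% of the genes above the floor, and a single exon for 8.90% and 3.95%. Genes of the opposite rule were more often compact too. Of the 3060 genes above the floor with a span under 10 kb, 98 met the rule and 48 (1.57%) the opposite one, against 21 (0.790%) and 15 (0.564%) of the 2658 genes of 50 kb or more. Of those with a single exon, 4.08% met the rule and 5.04% the opposite one. Mean levels were alike, with a median of 34 CPM for the members and 33.4 CPM for the genes above the floor. Members overlapped another gene of the table on the same strand in 9 cases (4.71%, against 9.01% of genes above the floor) and on the opposite strand in 25 cases (13.1%, against 14.8%). The kit kept strand, but no label says whether counting used it. Overlaps on either strand may therefore affect the counts of these genes.

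The members also lay more often in gene-dense parts of the genome. Local gene density counts the genes of the table with a midpoint within 500 kb on either side, the gene itself included. The median was 29 for the members and 20 for the genes above the floor. Of the genes above the floor with at most 15 such genes, 33 (0.851%) met the rule, of those with 16 to 26, 43 (1.42%), and of those with at least 27, 115 (3.15%). For the opposite rule the order was reversed, with 65 (1.68%), 38 (1.25%) and 16 (0.439%) genes from the sparsest class to the densest.

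Span and density were partly separate. Among genes with at most 15 genes nearby, 1.99% of those under 10 kb met the rule, against 0.494% of those of 50 kb or more. Among genes with at least 27 nearby the shares were 3.65% and 3.45%. By chromosome, 3.18% met the rule on chromosome 12 (12 genes), 2.54% on chromosome 1 (34 genes) and 2.51% on chromosome 16 (8 genes). The share was 0.573% on chromosome 2 (4 genes) and 0.275% on chromosome 14 (1 gene). Chromosomes 1, 2 and 14 each hold a region that the rule leaves out. Genes of these regions still count among those above the floor, so the shares of these chromosomes depend in part on the rule.

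Density was also a property along which the libraries differed. For each library the deviation of every gene above the floor from its mean in the cell type, in log2(CPM + 1), was regressed on log2 density. The slopes were 0.098, 0.038 and 0.055 in PASMC siNRF2, against -0.065, -0.088 and -0.037 in PASMC siControl. They were -0.041, 0.0019 and -0.020 in PAEC siNRF2, against 0.060, 0.029 and -0.030 in PAEC siControl. The slopes did not overlap between the siRNAs in PASMC, and overlapped in PAEC, where control replicate 3 lay among the siNRF2 libraries. Because deviations were taken from the mean of the cell type, its slopes balance. Mean slopes of opposite sign in the siRNA groups follow from this, while the distance between them does not.

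The members' own levels followed the order of the slopes among the libraries of 3 of the 4 groups, PAEC siNRF2 being the exception. Their median deviation was 0.36, 0.21 and 0.26 in PASMC siNRF2, against -0.28, -0.40 and -0.13 in PASMC siControl. In PAEC it was -0.29, -0.25 and -0.31 in siNRF2, against 0.42, 0.31 and 0.097 in siControl. The library with the steepest slope of PASMC siNRF2, replicate 1, had the highest of its group's 3 values for 132 of the 191 genes, against 36.5% of genes above the floor. The library with the lowest slope of PAEC siControl, replicate 3, had the lowest of its group's values for 155 of the 191 (81.2%), against 40.7% of genes above the floor. The members lie more often in gene-dense parts and are among the genes that gave the slopes. Their levels in these libraries also chose them, so the shared order and these counts are not independent of the slopes or the rule. The part of the density trend in the members' responses was not tested.

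**Figure D4:**
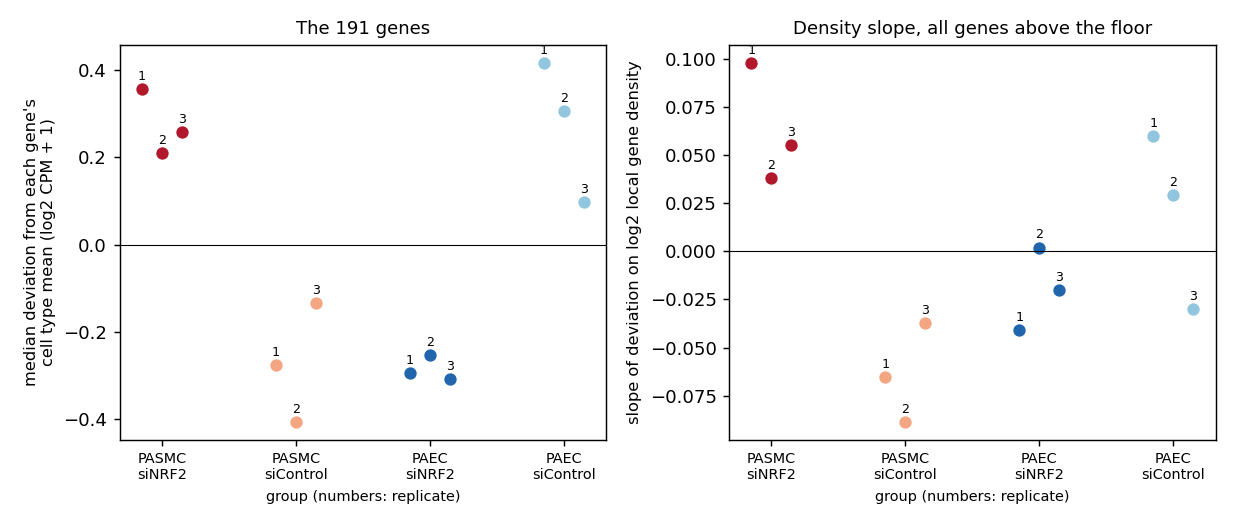
Left, median deviation of the 191 genes from each gene's mean in its cell type, in log2(CPM + 1); right, slope of that deviation on log2 local gene density over the 10559 genes above the level floor; 1 point per library, numbered by replicate, with groups on the horizontal axis. On the left the siRNA groups are apart by the choice of the genes, with PAEC siControl replicate 3 closest to the siNRF2 libraries at 0.097; on the right its slope of -0.030 lies among those of PAEC siNRF2.

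When each library's trend with density was removed, by a lowess curve fitted over the genes above the floor, the median log2 ratio of the 191 was 0.53 in PASMC, against 0.55 before, and -0.51 in PAEC, against -0.58. Members with at least 27 genes nearby moved more, to medians of 0.39 and -0.47, against 0.52 and -0.56 before. Members with at most 15 had 0.74 and -0.66 after removal, against 0.57 and -0.67 before. Applied to the adjusted values, the rule chose 139 genes, of which 105 were among the 191, and 1.12% of the genes in the densest class met it, against 1.37% in the sparsest. The order of the opposite rule turned round, with 27 (0.697%), 34 (1.12%) and 45 (1.23%) genes from the sparsest class to the densest. The curve was fitted to the same genes, so the loss of the earlier order by density follows from the adjustment. Spans under 10 kb stayed more frequent, at 2.09% of genes against 0.903% of those of 50 kb or more.

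The 3 genes on chromosome 12 described above moved little with this adjustment, to log2 ratios in PAEC of -2.53, -1.34 and -1.58 and in PASMC of 0.56, 0.53 and 0.42. The abundant gene on chromosome 1 at 101448346 to 101449829, with 78 genes nearby, had 0.24 in PASMC after the adjustment, against 0.51 before, and -0.91 in PAEC, against -1.09.

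**Figure D5:**
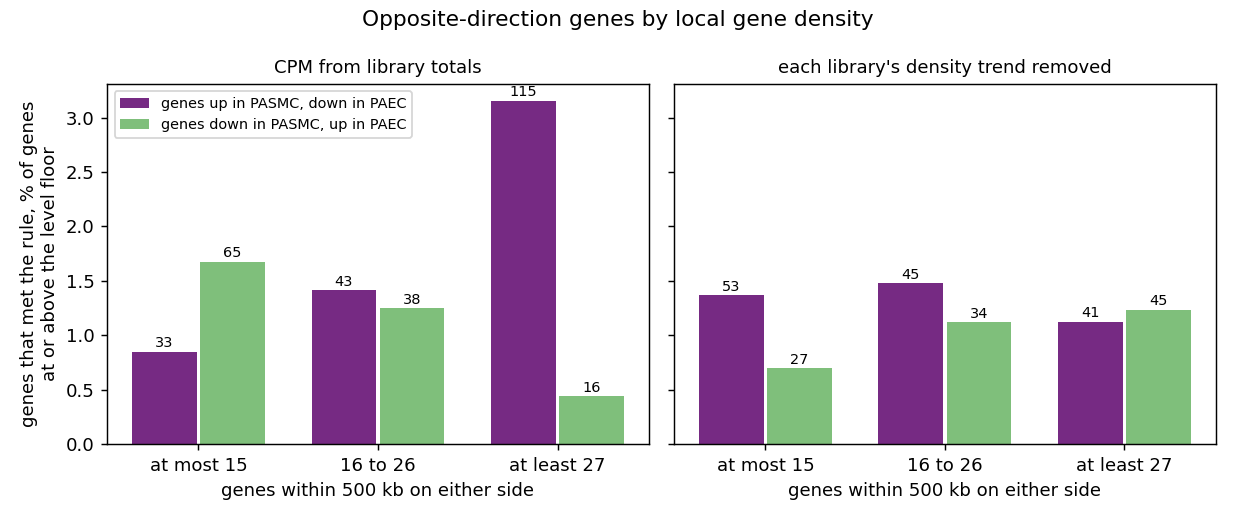
Share of genes above the level floor (vertical axis, %) that met the rule (purple) or the opposite rule (green) in each class of local gene density (horizontal axis), with the number of genes above each bar; left from library totals, right after removal of each library's trend with density. On the left the purple bars climb to 3.15% (115 genes) in the densest class, and the green bars descend to 0.439%. On the right, where the adjustment itself takes out differences along density, the purple bars range between 1.12% and 1.48%. The green bars there climb to 1.23% in the densest class.

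Single libraries moved the number of genes that meet the rule. Without PAEC siControl replicate 3 it was 315, of which 189 were among the 191, and without PAEC siControl replicate 1 it was 154. The share in the densest class was 5.46% and 2.5% in these cases, against 1.24% and 0.800% in the sparsest. Over all 12 libraries left out in turn, the share in the densest class stayed between 2.5% and 5.46% and that in the sparsest between 0.774% and 1.24%. The members together took 2.39 ± 0.111% of all counts in PASMC siNRF2 and 1.66 ± 0.123% in PASMC siControl, and 0.996 ± 0.0173% in PAEC siNRF2 and 1.55 ± 0.167% in PAEC siControl.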

How the data were processed

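The deposited values are raw counts per gene for 12 libraries, with exon positions and a length for each gene. The submitters' processing notes list, without their roles, DESeq2 1.32.0, featureCounts 2.0.3 and HISAT2 2.0.5. The build and the strand setting were not stated. Per the labels' protocols, RNA was taken with Trizol and the library kit was directional. From the deposited counts, CPM by library totals were computed for the rule. For tests, genes were kept by filterByExpr (14584), scaled by TMM and fitted with a mean for each of the 4 groups (8 residual degrees of freedom) by robust glmQLFit and glmQLFTest of edgeR 4.0.16 in R 4.3.3. The threshold was a p under 0.05 after Benjamini-Hochberg adjustment over all genes tested. Standard errors came from the F statistics. Only the comparison of the cell types was tried on simulated counts. Changes of 1.5-fold, 2-fold and 4-fold were called in the right direction for 59.8%, 62.1% and 90% of the changed genes. Of the calls on these counts, 6.71% were false. Whether these rates hold for the calls made on the deposited counts was not tested. The rule and the removal of the density trend were not simulated. Local density trends used lowess (statsmodels 0.14.6, span 0.5) on log2(CPM + 1).

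The members and lists were chosen with earlier results of these data known. The genes named were to be the 24 with the largest smaller change and members of lists by symbol. As no ID matched a symbol, lists and cell type markers were not run, 4 IDs are printed and other genes are given by position; members of groups of neighbours and other single genes outside the 24 were chosen after their values were seen. No sequence is printed, since none could be tied to an ID. Alternatives were other scalings, filters, tests and thresholds, the replicate block, each library left out, and removal of the density trend, of which its use with the rule was chosen after seeing the data.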

Additional observations from a re-analysis of the deposited data

Results flagged for a closer look

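All 191 genes were higher in every PASMC siNRF2 library than in any PASMC siControl library, and lower in every PAEC siNRF2 library than in any PAEC siControl library, so that the cell types moved in opposite directions in every sample. This follows from the rule that chose them, and the difference was not tested as a result of its own. With 3 libraries in each group, no test for single outlying libraries was run. How the counts change with each library left out is given above and below.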

How the results depend on the processing

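The number of genes that met the rule depended on its limits. It was 46 with ratios of 1.5 and its inverse, and 389 with ratios of 1.2 and its inverse. It was 191 with TMM-scaled CPM, of which 158 were among the 191, and 286 with no requirement on overlap. Leaving out each library in turn gave 154 to 315 genes, with the highest count without PAEC siControl replicate 3, where the requirement of no overlap also falls on fewer libraries. Members called different between the cell types numbered 140, and 133 to 144 with single libraries left out. The medians of the members' log2 ratios ranged from 0.50 to 0.62 in PASMC and from -0.66 to -0.50 in PAEC when a library of that cell type was left out, and moved by less than the spread between replicates with other scalings, log2(CPM + 1) and the density trend removed. Same-numbered libraries of a cell type did not deviate together (correlations from -0.058 to 0.013), and with the replicate block 138 members were called. The replicate block does not apply to the rule or the ratios, which use no fit. Counting error limits the precision of genes at a few CPM, among them several of the short genes.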

Other observations

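By the same thresholds and left-out regions, 176 genes were higher with NRF2 siRNA in both cell types and 375 were lower in both, beside the 191 genes described and the 119 of the opposite pattern. With nothing left out, the 4 counts were 177, 378, 211 and 119, so 20 of the 24 genes that the left-out regions and single genes remove belong to the pattern described here. These regions were set with earlier results of these data known.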
